A study of Equus asinus with 2 samples.

Results

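The 9 genes described here are DHH, the Hedgehog ligand of the fetal testis, with the proteins that receive and relay its signal: the receptor PTCH1, the decoy receptor HHIP, the co-receptor BOC, the membrane transducer SMO, the inhibitor SUFU and the transcription factors GLI1, GLI2 and GLI3. They were taken by name from a feature table of 38517 genes. Of the members, 8 carried their symbol, and HHIP was listed by a locus identifier that a RefSeq gene table of the donkey pairs with that name.

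The data are 2 droplet single-cell RNA libraries of fetal donkey (Equus asinus). One is labelled as ovarian tissue at 8 weeks of gestation, and the other as gonad with the adjoining mesonephros, the transient embryonic kidney, at 4 weeks. No treatment or genotype is given, and the number of fetuses behind each library is unknown. With 1 library per stage there is no replicate and no test of a difference. Stage, dissected tissue and library cannot be told apart.

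A Hedgehog ligand binds PTCH1 on a neighbouring cell and so frees SMO, which leads the GLI proteins to switch on target genes. PTCH1, GLI1 and HHIP are themselves such targets, so their transcripts are widely read as a sign of a cell that is receiving the signal. In the mouse testis, Sertoli cells release DHH and interstitial cells respond to it, and fetal Leydig cells fail to form in normal number without it.

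The 8-week library held 14593 cell barcodes and 155128130 UMIs (unique molecular identifiers, counts of captured transcripts), and the 4-week library 8938 barcodes and 122341903 UMIs. Cells were sorted into types by marker genes, with no Hedgehog gene among the markers. The gates held 841 and 681 Sertoli cells, 6779 and 1232 stroma cells, 866 and 486 germ cells, 259 and 132 Leydig cells, 477 and 1462 endothelial cells, 762 and 131 macrophages and 443 and 122 mural cells (pericytes and smooth-muscle-like cells) at 8 and 4 weeks. Tubule and podocyte gates were filled at 4 weeks and held 0 cells at 8 weeks. A share of 23.9% of cells at 8 weeks and 35.0% at 4 weeks passed no gate, and 4.37% and 2.85% passed several and were left out of all gates.

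The marker levels went against the ovarian label of the 8-week library. AMH, the Sertoli hormone that regresses the female ducts, stood at 514 UMIs per 1000000 (CPM) over all cells of the library labelled ovary and at 420 CPM in the 4-week library. FOXL2, a granulosa cell factor, stood at 1.55 and 1.03 CPM at 8 and 4 weeks. The 8-week library is therefore called the library labelled ovary where its tissue is meant.

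A level is given as CPM, the UMIs of a gene in all cells of a gate per 1000000 UMIs of the same cells. Ranges in brackets are exact 95% intervals, which cover counting error only and say nothing of the spread between animals. UMIs of transcripts that are free in the droplets appear in every cell type at a low level, so values in endothelial cells and macrophages are given as a background. Whether these cells make the transcripts themselves was not tested.

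DHH was found mainly in the Sertoli gate in both libraries. Its level there was 60.6 CPM (56.7 to 64.7) in the library labelled ovary and 58.7 CPM (54.7 to 62.8) at 4 weeks. The ratio of 1.03 (0.938 to 1.14) lay within counting error. Sertoli cells stood 30.5-fold (26.3 to 35.4) over the other gated cells at 8 weeks and 29.0-fold (23.8 to 35.5) at 4 weeks. Of the members, 1 of 9 passed 2-fold in this sense at either stage, against 11.0% of all genes tested at 8 weeks and 11.0% at 4 weeks. Leydig cells had 0 of 9 members past 2-fold over other gated cells, against 10.1% of genes at 8 weeks and 11.3% at 4 weeks, and endothelial cells 0 of 9, against 13.7% and 12.3% at 8 and 4 weeks. Mural cells had 0 at 8 weeks, against 10.4%, and 1 at 4 weeks, GLI2 with 2.07-fold, against 16.5%.

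The Sertoli gate held 64.6% of all DHH UMIs at 8 weeks and 72.0% at 4 weeks, though it held 9.64% and 11.4% of the UMIs of all genes. Cells that passed several gates held a further 14.4% and 12.0% at 8 and 4 weeks. A DHH UMI was seen in 54.1% of Sertoli cells at 8 weeks and 59.6% at 4 weeks. With every cell thinned to 1000 UMIs, which left out 32 and 9 shallower Sertoli cells, the shares were 5.56% (4.09 to 7.37) and 7.59% (5.70 to 9.86) at 8 and 4 weeks. Endothelial cells gave 0.879% and 0.555% in the same thinned counts, and 5.24% and 4.24% unthinned at 8 and 4 weeks. Macrophages gave 0% thinned at both stages, which allows up to 0.418% and 2.52%, and 1.18% and 0.763% unthinned at 8 and 4 weeks. Median depth was 14097 and 15036 UMIs in Sertoli cells and 6197 and 7676.5 UMIs in endothelial cells at 8 and 4 weeks.

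Outside the Sertoli gate, DHH was at 6.76 CPM (4.76 to 9.32) in endothelial cells at 8 weeks and 3.18 CPM (2.47 to 4.02) at 4 weeks. Macrophages had 2.16 CPM (0.987 to 4.10) at 8 weeks and 1.17 CPM (0.0297 to 6.54) at 4 weeks. The endothelial interval thus lay above that of macrophages at 8 weeks and overlapped it at 4 weeks. Germ cells had 4.59 and 3.16 CPM, Leydig cells 2.01 and 2.06 CPM, and stroma 1.35 and 0.844 CPM at 8 and 4 weeks. Mural cells had 1.20 CPM at 8 weeks and 0 UMIs at 4 weeks, which allows up to 2.65 CPM. Free RNA as a source of these low levels was not tested.

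The ratio of DHH to AMH also differed between gates. AMH is a marker of the Sertoli gate, and cells of several gates were left out, so the choice of cells itself raises AMH in that gate and lowers it in the others. In Sertoli cells there were 16.2 DHH UMIs per 1000 AMH UMIs at 8 weeks (15.1 to 17.3) and 20.4 at 4 weeks (19.0 to 21.8). Endothelial cells had 115 (79.7 to 162) at 8 weeks and 133 (102 to 171) at 4 weeks, several times the Sertoli ratio in both libraries. Stroma had 23.6 (19.4 to 28.4) at 8 weeks and an interval of 19.7 to 72.7 at 4 weeks, from 11 DHH UMIs. Germ cells had 42.4 and 42.0, Leydig cells 38.5 and 83.3 and macrophages 31.8 and 58.8 at 8 and 4 weeks, the last from 9 and 1 DHH UMIs. A ratio above the Sertoli one was thus seen in several gates. With cells of several gates kept, germ cells had 11.9 and 12.1 CPM of DHH at 8 and 4 weeks.

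**Figure D1:**
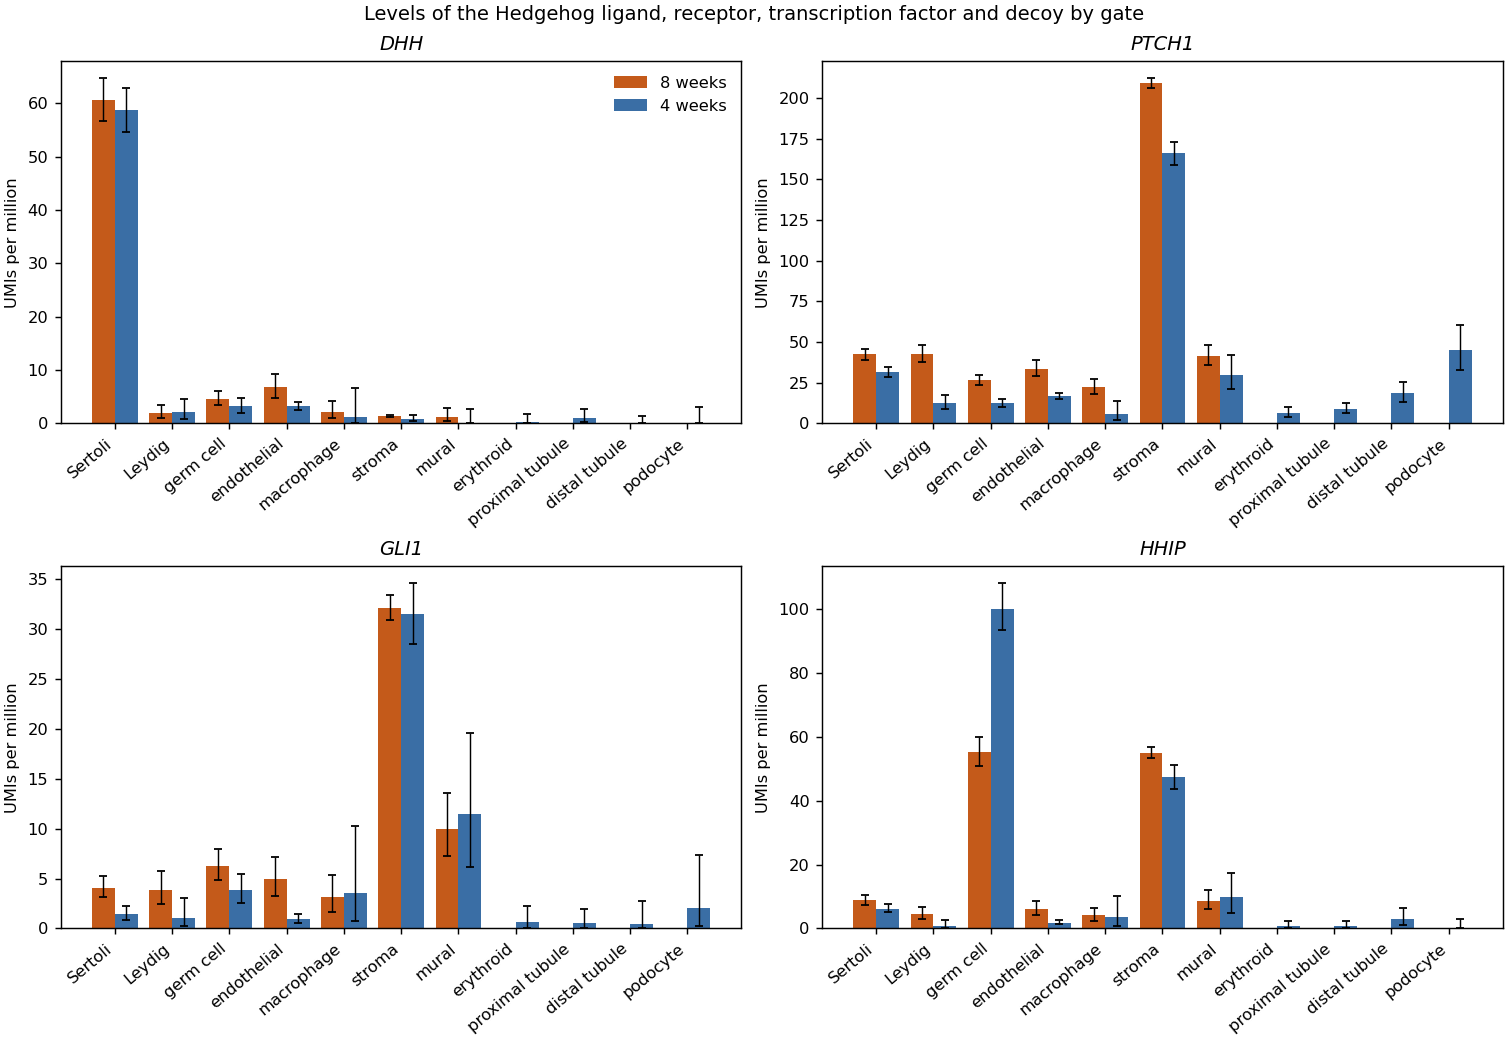
CPM of DHH, PTCH1, GLI1 and HHIP by cell-type gate at 8 weeks (orange) and 4 weeks (blue), 1 library per stage; lines are exact 95% counting intervals, and gates under 50 cells are left blank. DHH stands near 60 CPM in the Sertoli gate at both stages, PTCH1 and GLI1 are highest in stroma, and HHIP is high in germ cells and stroma.

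PTCH1, the receptor that a ligand silences and a target of the pathway, was highest in stroma. Its level there was 209 CPM (206 to 212) at 8 weeks and 166 CPM (159 to 173) at 4 weeks, a ratio of 1.26 (1.20 to 1.32). Stroma stood 5.86-fold over the other gated cells at 8 weeks and 8.71-fold at 4 weeks. In this contrast 8 of 9 members passed 2-fold at 8 weeks, against 13.7% of all genes tested, and 7 of 9 at 4 weeks, against 12.8%. DHH was below 2-fold at both stages, and SUFU at 4 weeks stood at 1.35-fold.

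At 8 weeks the stroma gate held 78.9% of PTCH1 UMIs and 54.0% of the UMIs of all genes. At 4 weeks it held 40.3% of PTCH1 UMIs and 10.7% of all UMIs. Ungated cells held 33.9% of PTCH1 UMIs at 4 weeks, close to their 36.5% of all UMIs, and 9.12% at 8 weeks, beside 9.23% of all UMIs. Over all cells PTCH1 was at 143 CPM at 8 weeks and 43.9 CPM at 4 weeks, a ratio of 3.26 (3.16 to 3.36). The ratio over all cells was thus larger than that within stroma, and stroma made up a larger share of the 8-week library.

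**Figure D2:**
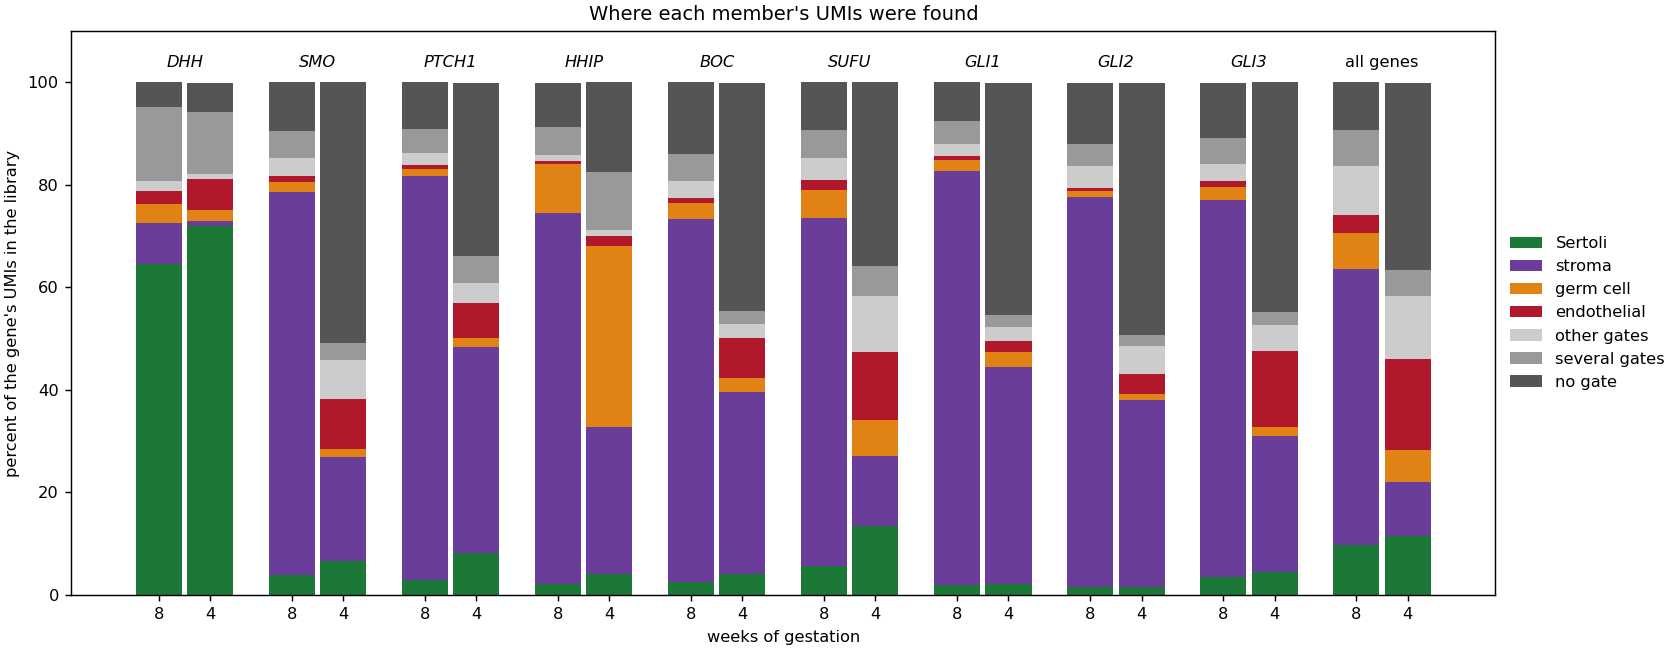
Percent of each member's UMIs found in each gate at 8 weeks (left bar) and 4 weeks (right bar), with the same for all genes at the far right. The Sertoli gate holds 64.6% and 72.0% of DHH, while stroma holds 78.9% and 40.3% of PTCH1 at 8 and 4 weeks.

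After thinning, 19.4% (18.4 to 20.4) of stroma cells held a PTCH1 UMI at 8 weeks and 15.1% (13.1 to 17.2) at 4 weeks, with 169 and 3 shallower cells left out. The unthinned shares were 65.0% and 60.1% at 8 and 4 weeks. Endothelial cells gave 3.52% and 1.18% after thinning at 8 and 4 weeks. Stroma was above this background at both stages.

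The other gates held less PTCH1. Sertoli cells had 42.4 CPM at 8 weeks and 31.3 CPM at 4 weeks, mural cells 41.6 CPM (35.7 to 48.3) and 34 UMIs (20.8 to 42.0 CPM), and podocytes at 4 weeks 45.1 CPM. With cells of several gates kept, mural cells had 82.6 and 69.8 CPM at 8 and 4 weeks. In the 8-week library, Leydig cells had 42.6 CPM (37.6 to 48.2), against 12.7 CPM (8.94 to 17.5) in the 4-week library. The Leydig ratio of 3.36 (2.37 to 4.88) was on the same side in Leiden cluster 10, which took the Leydig name. That cluster held 576 and 175 cells at 8 and 4 weeks, and over both libraries 53.5% of them passed the Leydig gate. Its PTCH1 level was 124 CPM (119 to 130) at 8 weeks and 27.7 CPM (22.8 to 33.4) at 4 weeks. These are levels of the whole cluster, including cells that did not pass the gate. The PTCH1 levels themselves thus moved more than 1.5 times with the way the cells were defined. Leydig values given below for the Leiden clusters are those of cluster 10.

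Macrophages also had more PTCH1 at 8 weeks, 22.3 CPM, than at 4 weeks, 5.87 CPM (1.91 to 13.7). Germ cells had 26.7 and 12.4 CPM, and endothelial cells 33.4 and 16.8 CPM at 8 and 4 weeks. COL1A1, the collagen transcript that is abundant in stroma, moved the same way in these gates. It stood at 149 and 59.9 CPM in macrophages, 118 and 46.6 CPM in germ cells, 180 and 46.1 CPM in endothelial cells, 114 and 32.2 CPM in Leydig cells and 164 and 32.1 CPM in Sertoli cells, while in stroma it was at 1486 and 1441 CPM at 8 and 4 weeks. Its part in the stage ratios outside stroma was not tested. In the Leiden clusters, PTCH1 at 8 weeks was at 52.4 CPM in macrophages, 41.0 CPM in germ cells and 56.4 CPM in endothelial cells. With cells of several gates kept, macrophages had 40.4 CPM at 8 weeks and germ cells 19.2 CPM at 4 weeks.

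HHIP, a membrane protein that binds Hedgehog ligands without relaying a signal, had high levels in germ cells as well as in stroma. Germ cells had 55.3 CPM (51.0 to 59.9) at 8 weeks and 100 CPM (93.5 to 108) at 4 weeks. The ratio was 0.550 (0.494 to 0.613), or 1.82-fold lower at 8 weeks. Stroma had 55.0 CPM (53.5 to 56.7) at 8 weeks and 47.4 CPM (43.7 to 51.3) at 4 weeks. Germ cells and stroma overlapped at 8 weeks, and germ cells stood apart above stroma at 4 weeks.

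The germ cell gate held 9.47% of HHIP UMIs at 8 weeks and 35.4% at 4 weeks. Of the UMIs of all genes it held 10882845 of 155126426 at 8 weeks and 7602223 of 122310536 at 4 weeks. The other gated cells, in which stroma took a larger part at 8 weeks, had 40.9 CPM of HHIP at 8 weeks and 12.1 CPM at 4 weeks. Germ cells stood 8.29-fold over the other gated cells at 4 weeks and 1.35-fold at 8 weeks, so both sides of this contrast changed. By this measure HHIP was the 1 member of 9 past 2-fold in germ cells at 4 weeks, against 19.7% of all genes tested there, and 0 of 9 passed at 8 weeks, against 22.4%. A HHIP UMI was found in 6.28% (4.74 to 8.13) of thinned germ cells at 8 weeks and 8.12% (5.84 to 10.9) at 4 weeks, against 1.32% and 0.208% of endothelial cells at 8 and 4 weeks. Unthinned, the germ cell shares were 36.4% and 57.2%, at median depths of 8691 and 12682.5 UMIs at 8 and 4 weeks.

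Germ cells had 470 HHIP UMIs per 1000 COL1A1 UMIs at 8 weeks and 2158 at 4 weeks, while stroma had 37.0 at 8 weeks and 32.9 at 4 weeks. Germ cells thus held many times more HHIP for their COL1A1 than stroma did. In Sertoli cells HHIP was at 8.89 and 6.23 CPM, and at 14.8 and 14.1 CPM with cells of several gates kept at 8 and 4 weeks. In mural cells it was at 8.61 and 9.71 CPM, and at 16.1 and 15.8 CPM with those cells kept at 8 and 4 weeks. Leydig cells had 4.53 CPM at 8 weeks and 0.686 CPM, from 2 UMIs, at 4 weeks. In the Leiden clusters the Leydig level of HHIP at 8 weeks was 25.1 CPM, the Sertoli levels were 16.6 and 26.9 CPM at 8 and 4 weeks, and the mural level at 8 weeks was 17.3 CPM. As a mean of per-cell CPM, the mural level at 4 weeks was 27.6 CPM. Levels of HHIP outside germ cells and stroma thus depended on which cells were counted.

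The difference in germ cell HHIP was also seen within clusters. In cluster 9, which took the germ cell name and was led at 4 weeks by POU5F1, TFAP2C and NANOG, HHIP was at 67.4 CPM (61.6 to 73.7) at 8 weeks and 108 CPM (100 to 116) at 4 weeks. Cluster 15 had 28.5 and 47.9 CPM at 8 and 4 weeks. Cluster 32, an 8-week cluster led by DAZL and DDX4, markers of germ cells past the earliest stage, had 30.3 CPM. Within the gate, cells with UMIs of DAZL, MAEL or DDX4 had 51.3 CPM and those without 88.7 CPM at 8 weeks, a ratio of 0.578 (0.445 to 0.763). At 4 weeks the same split gave 105 and 86.0 CPM, a ratio of 1.23 (0.990 to 1.53). Cells with these genes were deeper, with medians of 14830.5 against 3774 UMIs at 8 weeks and 22058.5 against 5210 UMIs at 4 weeks.

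**Figure D3:**
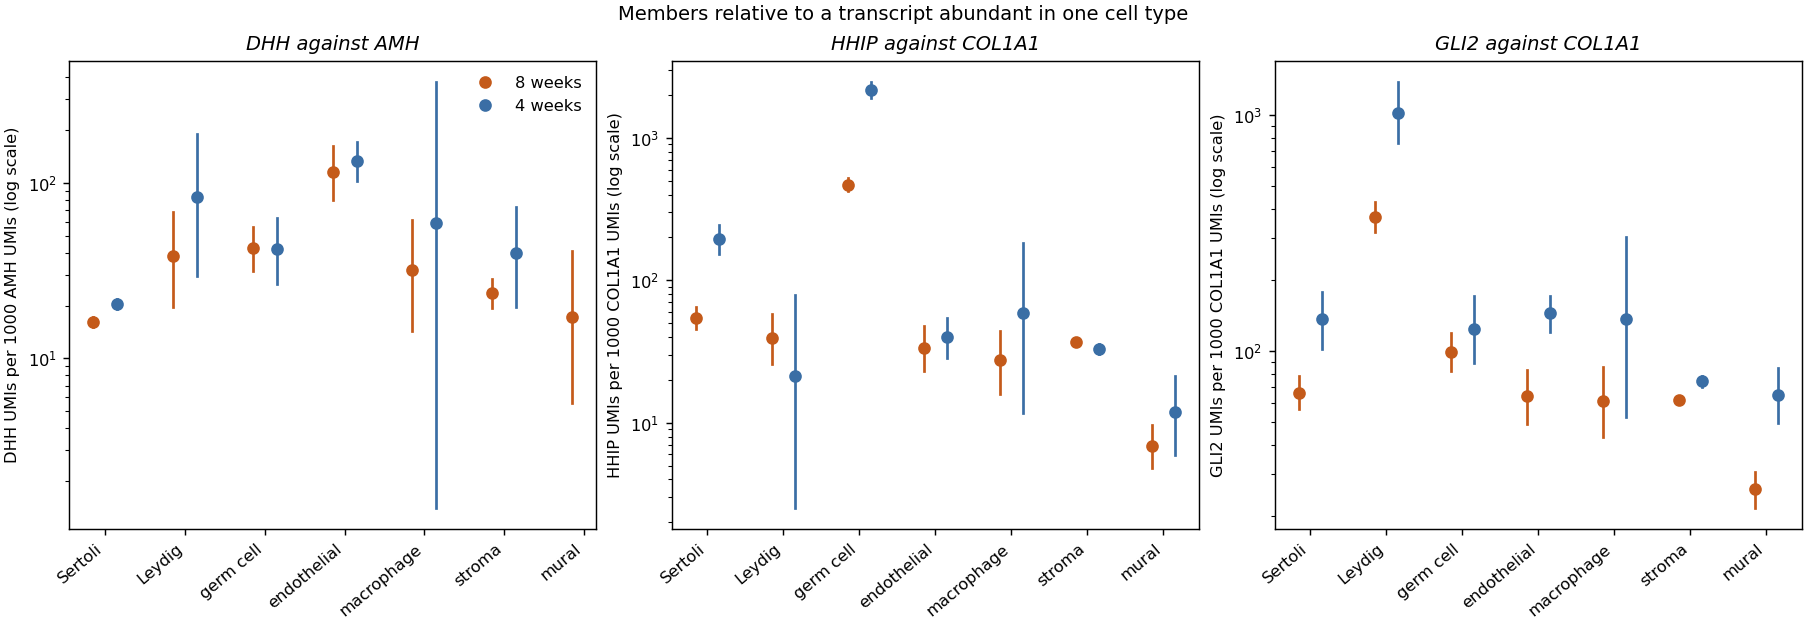
UMIs of a member per 1000 UMIs of a transcript abundant in 1 cell type (AMH being also a marker of the Sertoli gate), on a log axis, by gate at 8 weeks (orange) and 4 weeks (blue), with exact 95% counting intervals: DHH against AMH, and HHIP and GLI2 against COL1A1. Endothelial cells stand above Sertoli cells for DHH, germ cells above stroma for HHIP, and Leydig cells above stroma for GLI2.

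BOC, a co-receptor that helps Hedgehog ligands bind, was highest in stroma. It stood at 39.4 CPM (38.0 to 40.7) at 8 weeks and 57.8 CPM (53.7 to 62.0) at 4 weeks, a ratio of 0.682 (0.630 to 0.739). Mural cells went the other way, with 23.7 CPM (19.2 to 28.8) at 8 weeks and 12.4 CPM (6.76 to 20.7) at 4 weeks. Macrophages had 6.71 CPM at 8 weeks and 0 UMIs at 4 weeks, which allows up to 3.52 CPM. Leydig cells had 4.87 CPM at 8 weeks and 2.40 CPM at 4 weeks, from 29 and 7 UMIs, and the ratio of 2.03 (0.869 to 5.48) turned below 1 when the gate cuts were halved. In the Leiden clusters the Leydig level at 8 weeks was 13.7 CPM, and that of macrophages 12.7 CPM.

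SMO, the transducer that PTCH1 holds silent, was also highest in stroma. Stroma had 81.2 CPM (79.3 to 83.2) at 8 weeks and 74.6 CPM (69.9 to 79.4) at 4 weeks. Mural cells had 35.6 and 42.4 CPM, Sertoli cells 23.7 and 22.6 CPM, endothelial cells 20.8 and 21.4 CPM and Leydig cells 23.3 and 12.7 CPM at 8 and 4 weeks, or 46.6 and 19.5 CPM in the Leiden clusters. At 4 weeks the proximal tubule gate had 37.9 CPM. Stroma was apart from the next gate at both stages.

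SUFU, which holds the GLI proteins in the cytoplasm, stood 2.14-fold and 1.35-fold over the other gated cells in stroma at 8 and 4 weeks, the smallest such ratios of the 8 members other than DHH. At 8 weeks stroma had 47.2 CPM (45.7 to 48.7), apart from the germ cells that came next with 29.6 CPM. At 4 weeks macrophages with 36.4 CPM, proximal tubule cells with 35.8 CPM and stroma with 35.5 CPM did not differ beyond their intervals. Sertoli cells had 22.1 CPM at 8 weeks and 32.8 CPM at 4 weeks, a ratio of 0.672 (0.582 to 0.776). In macrophages SUFU was at 17.3 and 36.4 CPM at 8 and 4 weeks, 2.11-fold lower at 8 weeks.

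GLI1, the activator whose own transcript is a target of the pathway, did not differ between stages in stroma beyond counting error. It was at 32.1 CPM (30.9 to 33.4) at 8 weeks and 31.5 CPM (28.5 to 34.6) at 4 weeks, a ratio of 1.02 (0.920 to 1.14). Mural cells came next, with 42 UMIs (7.24 to 13.6 CPM) at 8 weeks and 13 UMIs (6.11 to 19.6 CPM) at 4 weeks. The remaining gates compared between stages had 6.25 CPM or less. Stroma stood 6.28-fold over the other gated cells at 8 weeks and 19.3-fold at 4 weeks.

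In the Sertoli gate GLI1 was at 4.08 CPM, from 61 UMIs, at 8 weeks and 1.43 CPM, from 20 UMIs, at 4 weeks, a ratio of 2.85 (1.69 to 4.98). In the Leiden clusters the log2 ratio was -0.05. That Sertoli class held 145 cells at 4 weeks, since cluster 17 had lost its name over its 55 cells at 8 weeks. Under 2 other ways of naming the clusters the ratio did not reverse. Endothelial cells had 4.93 and 0.922 CPM, and Leydig cells 3.86 and 1.03 CPM, from 23 and 3 UMIs at 8 and 4 weeks. In the Leiden clusters the Leydig level at 8 weeks was 17.6 CPM. All of these gates also held more COL1A1 at 8 weeks, as given above.

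GLI2, the main activator in most tissues, was at 92.2 CPM (90.2 to 94.3) in stroma at 8 weeks and 107 CPM (102 to 113) at 4 weeks. Leydig cells had 42.3 CPM (37.2 to 47.9) at 8 weeks and 32.9 CPM (26.7 to 40.2) at 4 weeks, and 76.4 CPM at 8 weeks in the Leiden clusters. Per 1000 COL1A1 UMIs, Leydig cells had 370 and 1021 GLI2 UMIs, and stroma 62.1 and 74.3 at 8 and 4 weeks. Leydig cells thus held more GLI2 for their COL1A1 than stroma did, at both stages. Other gates did so too at 4 weeks: Sertoli cells had 136, germ cells 124, endothelial cells 144 and macrophages 137, while mural cells had 65.1. At 8 weeks germ cells had 99.2, Sertoli cells 66.6, endothelial cells 64.1, macrophages 61.3 and mural cells 25.9. As for HHIP, leaving out cells that also passed the stroma gate lowers COL1A1 outside stroma.

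Mural cells had 32.3 CPM of GLI2 at 8 weeks and 53.0 CPM at 4 weeks, a ratio of 0.610 (0.447 to 0.841). The mural level at 4 weeks was 79.9 CPM in the Leiden clusters. Sertoli cells had 10.9 CPM at 8 weeks and 4.37 CPM at 4 weeks, a ratio of 2.49 (1.85 to 3.40), whose log2 value was -0.73 in the Leiden clusters. Under 2 other ways of naming the clusters it did not reverse. That difference depends on which cells are called Sertoli cells.

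GLI3, which acts mostly as a repressor when no ligand is present, was lower at 8 weeks in stroma and mural cells. Stroma had 137 CPM (135 to 140) at 8 weeks and 214 CPM (206 to 222) at 4 weeks, a ratio of 0.642 (0.616 to 0.669). Mural cells had 76.8 CPM at 8 weeks and 146 CPM at 4 weeks, a ratio of 0.527 (0.435 to 0.640). As means of per-cell CPM, the mural levels of GLI3 were 120 CPM at 8 weeks and 217 CPM at 4 weeks. Sertoli cells differed less, with 37.2 and 34.0 CPM at 8 and 4 weeks. In the 5 stroma clusters GLI3 had 107 and 112, 125 and 194, 223 and 245, 138 and 199, and 140 and 246 CPM at 8 and 4 weeks. It was lower at 8 weeks in 4 of 5, while in cluster 0 the intervals of 101 to 113 and 96.2 to 130 CPM overlapped. PTCH1 in the same clusters had 232 and 205, 214 and 188, 86.6 and 65.4, 243 and 198, and 149 and 79.3 CPM at 8 and 4 weeks. It was higher at 8 weeks in 4 of 5, with the intervals of 224 to 240 and 183 to 229 CPM overlapping in cluster 0.

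Endothelial cells had 33.3 CPM of GLI3 (28.6 to 38.5) at 8 weeks and 72.6 CPM (69.0 to 76.2) at 4 weeks, 2.18-fold lower at 8 weeks. This difference was not seen in every endothelial cluster. Cluster 12, with 511 and 201 cells at 8 and 4 weeks, had 44.9 CPM (39.8 to 50.5) at 8 weeks and 47.7 CPM (41.9 to 54.2) at 4 weeks. Cluster 29, with 92 and 55 cells, went the other way, with 38.7 CPM (25.1 to 57.2) at 8 weeks and 11.0 CPM (5.51 to 19.8) at 4 weeks. Cluster 20, with 288 cells of the 4-week library, had 57.8 CPM. Cluster 6, 930 cells of the 4-week library led by PLVAP, a protein of fenestrated vessels, had 90.7 CPM. In the gate at 4 weeks, cells with PLVAP had 80.5 CPM and cells without it 31.1 CPM, a ratio of 2.59 (2.06 to 3.30), against 30.1 and 39.1 CPM at 8 weeks. GLI3 at 4 weeks was thus higher in endothelial cells with PLVAP than in those without, and cluster 6 held 1 cell of the 8-week library.

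The distal tubule gate had 93.9 CPM of GLI3 at 4 weeks. Without cells over 3 times the median depth the value was 18.8 CPM, and the Leiden cluster of that name had 9.43 CPM. Among unnamed 4-week clusters, cluster 16, 618 cells led by EYA1, EYA4 and PAX2, genes of the nephric lineage, had 143 CPM of GLI3, 51.0 CPM of GLI2, 54.3 CPM of SMO and 41.9 CPM of PTCH1, with 2.74 CPM of HHIP. Transcripts of the pathway at 4 weeks were thus also found in cells outside the gonadal gates.

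**Figure D4:**
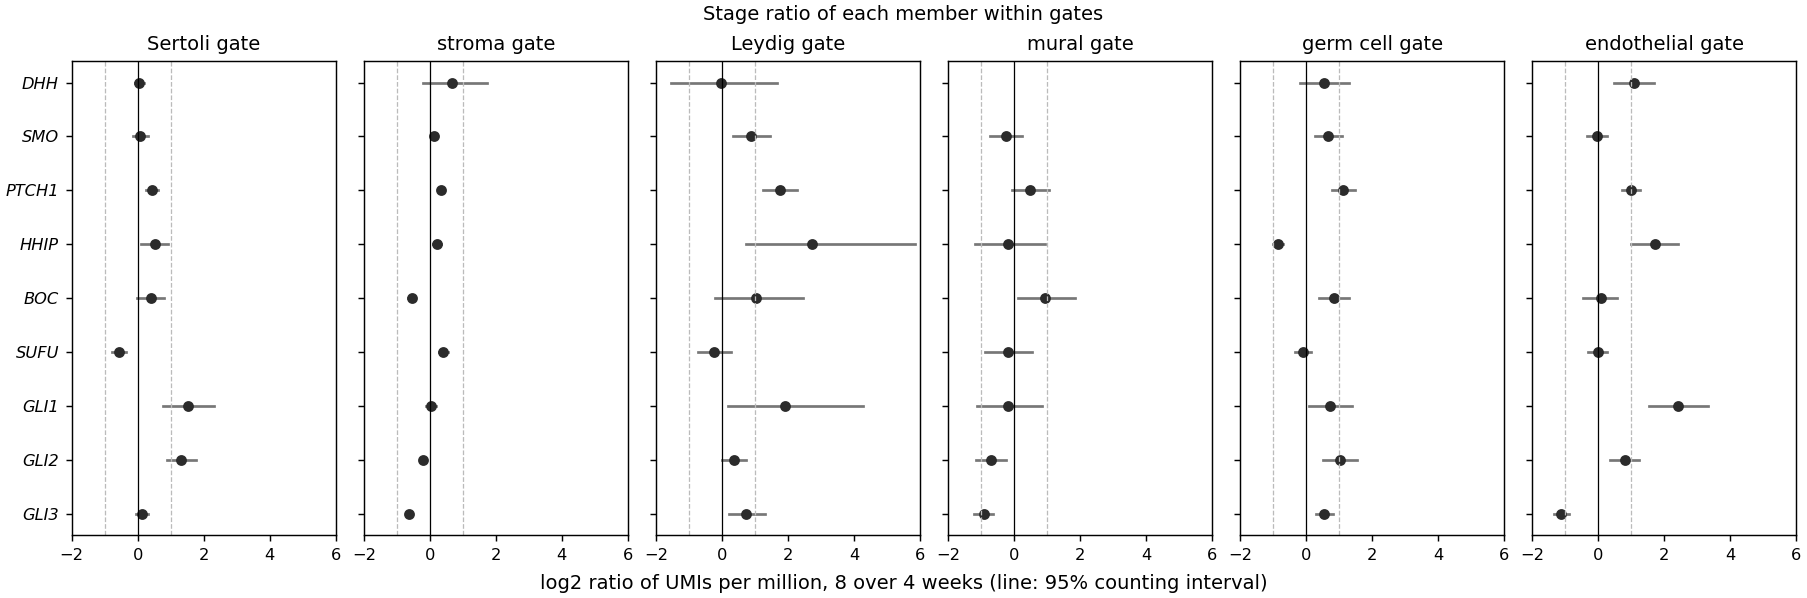
Log2 ratio of CPM, 8 over 4 weeks, of each member in 6 gates, with exact 95% counting intervals; dashed lines mark 2-fold, and DHH is left blank in mural cells, where 4 weeks had 0 UMIs. In stroma all ratios lie within 2-fold, GLI3 is lower at 8 weeks in stroma, mural and endothelial cells, and HHIP is lower in germ cells.

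Among the gates compared, the members that differed by 2-fold between the libraries lay outside stroma and mural cells. In stroma 0 of 9 were at least 2-fold higher and 0 at least 2-fold lower at 8 weeks, against 6.70% and 12.5% of all genes tested. In Sertoli cells 2 were higher and 0 lower at 8 weeks, against 8.25% and 12.3%, and in Leydig cells 3 higher and 0 lower, against 7.20% and 9.25%. Germ cells had 2 higher and 0 lower at 8 weeks, against 11.2% and 9.94%, and endothelial cells 3 higher and 1 lower, against 9.16% and 13.0%. Macrophages had 2 higher and 1 lower at 8 weeks, against 9.44% and 11.8%, and mural cells 0 higher and 0 lower of the 8 members tested there, against 8.13% and 12.0%. Over all cells 4 were higher and 0 lower at 8 weeks, against 8.92% and 18.9%.

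The median log2 ratio of the members was 0.12 in stroma, 0.38 in Sertoli cells, 0.86 in Leydig cells, 0.66 in germ cells, 0.80 in endothelial cells, 0.24 in macrophages and -0.22 in mural cells. The medians over all genes tested in the same gates lay between -0.11 and -0.00. In each of these gates but the mural one, the larger number of members was thus higher at 8 weeks. COL1A1 was also higher at 8 weeks in the Sertoli, Leydig, germ cell, endothelial and macrophage gates, as given above. Leydig cells had 373 and 394 PTCH1 UMIs per 1000 COL1A1 UMIs, and germ cells 227 and 266 at 8 and 4 weeks. Endothelial cells had 186 and 364, Sertoli cells 259 and 975, and macrophages 150 and 98.0 at 8 and 4 weeks. What part stroma RNA has in these medians was not tested.

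Within the stroma gate the members differed among cells. The gate was split by the UMIs of 12 genes or gene pairs in turn, comparing cells with at least 2 UMIs and cells with 0. The splits were chosen with results known, and those by RXFP2, POSTN, TCF21 and NRG1 are drawn. TCF21 is also a marker of the gate.

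RXFP2 encodes the receptor for the Leydig hormone INSL3. At 8 weeks the 906 stroma cells with RXFP2 had 157 CPM of PTCH1 and the 5123 without it 230 CPM, a ratio of 0.681 (0.655 to 0.709). At 4 weeks 220 cells with RXFP2 had 82.8 CPM and 859 without it 208 CPM, a ratio of 0.397 (0.349 to 0.450). HHIP followed, with 38.7 against 62.4 CPM at 8 weeks and 25.2 against 57.5 CPM at 4 weeks. GLI1 was lower too, with 27.4 against 34.2 CPM and 23.8 against 35.7 CPM at 8 and 4 weeks.

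BOC went the other way in the same split. Cells with RXFP2 had 61.6 CPM and cells without it 30.5 CPM at 8 weeks, a ratio of 2.02 (1.87 to 2.18), and 90.8 and 43.2 CPM at 4 weeks. GLI3 was higher with RXFP2 as well, 162 against 128 CPM and 253 against 198 CPM at 8 and 4 weeks. Stroma with RXFP2 thus had less of the 3 target transcripts and more of the co-receptor and of GLI3, in both libraries. Depth differed between the cells compared, with median UMIs of 14495 against 6522 at 8 weeks and 10627 against 7961 at 4 weeks.

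Cluster 2, whose leading genes in both libraries include CSMD1, DCC and RXFP2, showed the same pattern without any split. PTCH1 was there at 86.6 CPM at 8 weeks and 65.4 CPM at 4 weeks, the lowest of the 5 stroma clusters with cells of both libraries, and BOC at 80.5 and 103 CPM, the highest of the 5. Cells with POSTN, a matrix protein of connective tissue, resembled those with RXFP2. They had 146 against 230 CPM of PTCH1 at 8 weeks and 69.5 against 202 CPM at 4 weeks.

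NRG1, a growth factor, marked the opposite side. Cells with NRG1 had 224 CPM of PTCH1 and cells without it 143 CPM at 8 weeks, a ratio of 1.57 (1.49 to 1.66), and 199 and 128 CPM at 4 weeks, a ratio of 1.56 (1.42 to 1.72). HHIP was at 59.5 against 33.9 CPM and 57.9 against 34.0 CPM at 8 and 4 weeks. The split by MKI67 or TOP2A, genes of dividing cells, gave 209 against 207 CPM of PTCH1 at 8 weeks and 180 against 157 CPM at 4 weeks. PTCH1 thus differed less with division than with RXFP2 or NRG1.

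**Figure D5:**
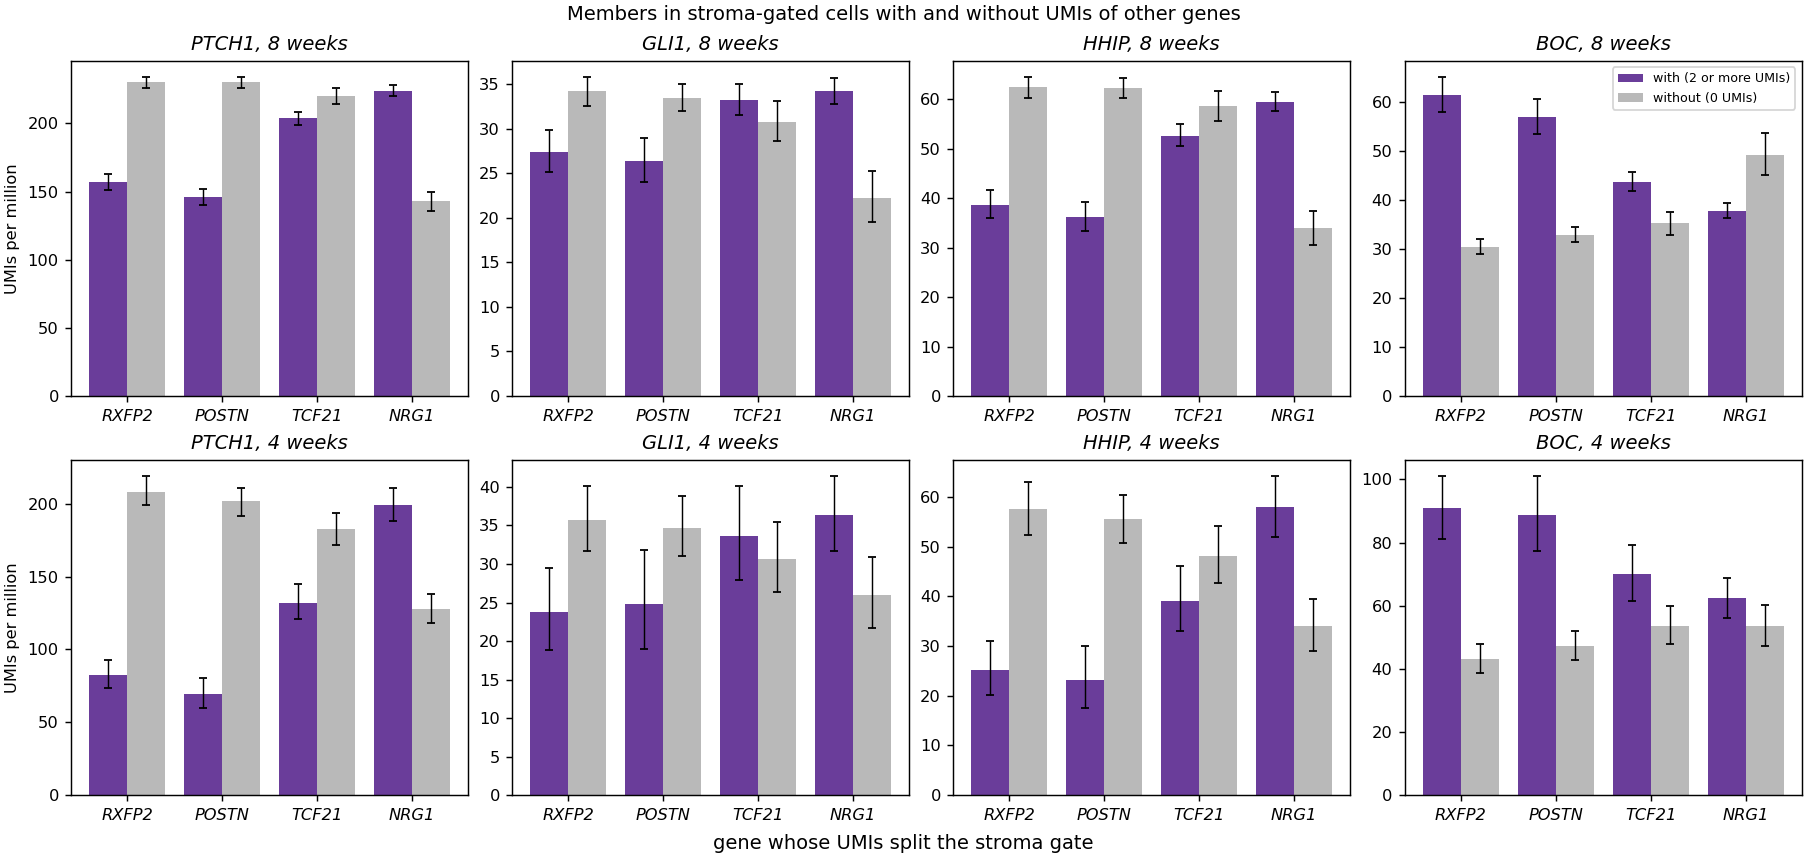
CPM of PTCH1, GLI1, HHIP and BOC in stroma cells with at least 2 UMIs (purple) and with 0 UMIs (grey) of RXFP2, POSTN, TCF21 or NRG1, at 8 weeks (upper row) and 4 weeks (lower row), with exact 95% counting intervals. PTCH1, GLI1 and HHIP are lower in cells with RXFP2 or POSTN and higher in cells with NRG1, while BOC is higher with RXFP2 and POSTN.

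DHH also varied among clusters with many Sertoli-gated cells. Cluster 5 had 47.9 CPM at 8 weeks, cluster 23 had 101 CPM at 8 weeks and 58.4 CPM at 4 weeks, and cluster 17 had 56.6 and 61.1 CPM. Cluster 23 was shallow, with 158 and 113 cells at medians of 2312.5 and 3006 UMIs at 8 and 4 weeks. Cluster 5 had a median of 21494 UMIs at 8 weeks. Over both libraries 60.1% of the cells of cluster 23 passed the Sertoli gate, against 85.9% in cluster 5. Cluster 30, with 10 cells at 8 weeks and 126 at 4 weeks, where the median was 43581 UMIs, was led by the germ cell genes POU5F1 and NANOG together with AMH and was left unnamed. At 4 weeks it had 34.3 CPM of DHH and 49.6 CPM of HHIP.

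The genes most like DHH over the 18 combinations of gate and library, by Pearson's r of log2(CPM + 1), were TMEM212 (0.932), TAC3 (0.924), SPMIP8 (0.920), AMH (0.919) and HSD17B3 (0.914). AMH and HSD17B3 are markers that made the Sertoli gate. For PTCH1 they were LTBP3 (0.924), UNC80 (0.913), GLRB (0.913), COL9A3 (0.910) and PHLDA3 (0.898). For GLI1 they were ADAMTS2 (0.952), COL1A2 (0.948), PCDH9 (0.939), TMEM132C (0.939) and PLCXD3 (0.929). HHIP was most like ZNF583 (0.962), LOC123275665 (0.955), CDH7 (0.948), LINGO2 (0.947) and DPY19L2 (0.931).

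Among the members, r was 0.82 for GLI1 with GLI2, 0.79 for PTCH1 with GLI1 and for GLI3 with SMO, and -0.07 for DHH with GLI1. All of these are descriptions over 18 points that share 2 libraries. The ligand and the targets were thus high in different gates.

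A further 49 genes of the pathway were examined by role, of which NR5A1 had no row in the feature table used. In stroma 3 were at least 2-fold higher and 5 at least 2-fold lower at 8 weeks of 45 tested, in Sertoli cells 5 and 2 of 43, in Leydig cells 7 and 3 of 39 and in mural cells 3 and 6 of 42. The shares of all genes tested were 6.70% higher and 12.5% lower in stroma, 8.25% and 12.3% in Sertoli cells, 7.20% and 9.25% in Leydig cells and 8.13% and 12.0% in mural cells. The median log2 ratio of the list was -0.19 in stroma, -0.20 in Sertoli cells, -0.08 in Leydig cells and -0.12 in mural cells, against -0.10, -0.10, -0.11 and -0.10 over all genes tested in these gates. Of the 16 genes of signal transduction, 0 passed 2-fold in either direction in stroma or in Sertoli cells, beside the shares of all genes just given.

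The other ligands were not found in the Sertoli gate beyond 2 UMIs. SHH had 0 UMIs in the Sertoli, Leydig, stroma and mural gates, and over all cells 1 UMI at 8 weeks and 26 at 4 weeks, of which 22 were in ungated cells. IHH reached at most 0.230 CPM in those 4 gates. In the proximal tubule gate of the 4-week library, however, IHH was at 21.2 CPM (16.8 to 26.4), with 80 of its 118 UMIs in that library. That level was above DHH in every gate but the Sertoli one. The 4-week library thus held a second Hedgehog ligand in cells outside the gonadal gates, and the 8-week library had 5 UMIs of it. DISP1, which releases the ligand from the cell, was at 29.2 and 35.6 CPM in Sertoli cells and 117 and 160 CPM in stroma at 8 and 4 weeks. SCUBE1, of a family that carries released ligand, was at 49.7 and 34.7 CPM in Sertoli cells and 7.78 and 6.90 CPM in stroma at 8 and 4 weeks. In Leydig cells SCUBE1 was at 21.7 and 5.83 CPM and SCUBE2 at 18.5 and 7.89 CPM at 8 and 4 weeks.

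The co-receptor CDON was at 86.4 and 54.9 CPM in stroma at 8 and 4 weeks, a ratio of 1.57, while GAS1, another co-receptor, was at 42.8 and 60.1 CPM, a ratio of 0.711. In stroma CDON was thus higher at 8 weeks, and BOC and GAS1 lower. GPC3, a glypican that competes for Hedgehog ligands, was at 588 and 728 CPM in stroma and 359 and 959 CPM in mural cells at 8 and 4 weeks.

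Genes known as mesenchymal targets in other tissues did not move together in mural cells. FOXC2, a forkhead factor, was at 13.4 and 59.2 CPM there, and BMP4, a secreted morphogen, at 11.0 and 42.4 CPM at 8 and 4 weeks. OSR1 was at 12.7 CPM (9.50 to 16.6) at 8 weeks and 4.42 CPM (1.43 to 10.3) at 4 weeks. The latter came from 5 UMIs, and the intervals overlapped. In stroma PDGFRA was at 298 and 330 CPM, TCF21 at 80.1 and 75.6 CPM, NR2F2 at 381 and 464 CPM, BCL2 at 144 and 189 CPM and SNAI1 at 22.7 and 14.8 CPM at 8 and 4 weeks. PDGFRA and TCF21 helped define the stroma gate. FOXF1 and FOXF2 were under 1 CPM.

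Fetal Leydig cells need DHH to form in normal number in the mouse, and their genes defined the Leydig gate. CYP11A1, which starts steroid synthesis from cholesterol, was at 3073 CPM at 8 weeks and 3251 CPM at 4 weeks in that gate. CYP17A1, which leads towards androgens, was at 15792 and 16724 CPM, and STAR, which brings cholesterol into mitochondria, at 1708 and 2976 CPM at 8 and 4 weeks. INSL3, the ligand of RXFP2, was at 3572 and 184 CPM at 8 and 4 weeks, 19.4-fold higher at 8 weeks. Of these 4 genes, INSL3 was the 1 that differed by 2-fold or more.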

How the data were processed

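The deposited matrices hold whole-number UMI counts per gene and barcode, not normalized. The authors counted with Cell Ranger, version 7.1.0 by the file headers and 2.1.1 by the submitters' processing notes, while the labels' protocols name a DNBelab C kit; what this does to the counts is not known. Build, annotation and intron counting: not given in the sources used here. Of the features, 16536 carried symbols, and RefSeq names (assembly EquAss-T2T_v2) were matched to 768 locus identifiers.

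The members and all gene lists were chosen with earlier results of these data known. Barcodes under 200 genes, 3 at 8 weeks and 26 at 4 weeks, were dropped, and 0 features were mitochondrial by name. Every barcode had at least 500 UMIs, with medians of 5877 and 7728 at 8 and 4 weeks. The libraries shared 38 barcode sequences. No doublet caller was run, and cells of several gates were left out instead.

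A cell passed a gate with UMIs of at least 2 of its markers and a summed marker level over a cut per 1000000 UMIs. Cuts were set on marker levels after they were seen, some gates use part of the listed markers, and lists for pregranulosa, leukocyte, coelomic epithelium and Schwann cells were not used. Pericyte and myoid gates were merged as mural, since each held under 50 cells at 4 weeks. Levels were summed UMIs per 1000000, with exact Poisson, conditional binomial (ratios) and Clopper-Pearson (shares) intervals at 95%; a count of 0 was given the limit of 3 counts. A gene was tested for 2-fold with at least 10 UMIs over both libraries and 0.5 UMI added. There is 1 library per stage, so no p-value is given.

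Leiden clusters (scanpy 1.11.5, leidenalg 0.10.2; 2000 variable genes without the members, 30 components, 20 neighbours, resolution 1.0, seed 1) took a gate's name where at least 50% of cells passed it. The naming was done in 3 ways, each after the one before was seen: by that share alone, then with names taken back where the leading genes of either library spoke against them (clusters 4, 17 and 30; used here), then judging the larger library of a cluster. The third way was tried because the second had turned GLI1 and GLI2 round in Sertoli cells. The ratio step was tested on simulated data.

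Pathway genes were named at 10 CPM or more with a 2-fold difference between stages or between Sertoli and stroma gates, which named 27; 1 of these genes is not reported here. Cluster values were picked after they were seen, as were splits by PLVAP, by DAZL, MAEL or DDX4, and of stroma. Likeness used genes at 20 CPM or more in a combination of at least 50 cells. Gene sequences were not used here.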

Additional observations from a re-analysis of the deposited data

Results flagged for a closer look

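For 5 members, the ratio of 8 over 4 weeks lay above 1 in one gate and below 1 in another, with counting intervals on either side of 1. The differences themselves were not tested, since each stage is 1 library. GLI2 was 2.49-fold higher at 8 weeks in Sertoli cells and had a ratio of 0.610 in mural cells, a log2 difference of 2.03. The Sertoli side of it reversed in the Leiden clusters as named here, with 145 Sertoli cells at 4 weeks, and not under the other 2 namings. GLI3 had ratios of 1.66 in Leydig cells and 0.458 in endothelial cells, a log2 difference of 1.86. HHIP had 6.61 in Leydig cells, where it rests on 27 UMIs at 8 weeks and 2 at 4 weeks, and 0.550 in germ cells, a log2 difference of 3.58. SUFU had 1.33 in stroma and 0.474 in macrophages, from 72 UMIs at 8 weeks and 31 at 4 weeks, a log2 difference of 1.49. BOC had 1.92 in mural cells, from 99 UMIs at 8 weeks and 14 at 4 weeks, and 0.682 in stroma, a log2 difference of 1.49. COL1A1 was higher at 8 weeks in the Sertoli, Leydig and mural gates, at 164 and 32.1, 114 and 32.2, and 1246 and 814 CPM at 8 and 4 weeks, and its part in these differences was not tested.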

How the results depend on the processing

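Of 600 values of the stage ratios within gates under the alternatives, 537 kept their direction. With no UMI added, 15 ratios reached 2-fold after their log2 values were rounded. For these, 147 of 150 values under the alternatives kept their direction and 115 stayed past 2-fold. With 0.5 UMI added, the rule of the counts above, there were 14. That set leaves out BOC in Leydig cells and PTCH1 in endothelial cells, and takes in BOC in macrophages, which had 0 UMIs at 4 weeks. On the log2 scale, the DHH ratio in Sertoli cells (0.05) was 0.24 with gate cuts halved, -0.10 in Leiden clusters named by gate share alone and -0.28 with leading genes judged in the larger library. PTCH1 in Leydig cells (1.75) was 1.20 with cuts halved. HHIP in germ cells (-0.86) was 1.22 over all cells of each library, which hold mostly other types. GLI3 in endothelial cells (-1.13) was -0.57 as a mean of per-cell CPM, -0.72 in Leiden clusters under each of the 3 namings and 0.22 over all cells. PTCH1 in stroma (0.33) was 0.51 with cuts halved, 0.16 without cells over 3 times the median UMIs, 0.40 as a mean of per-cell CPM, 0.50 in Leiden clusters and with the larger library judged, 0.54 with names by gate share, 0.43 with a median-of-ratios factor and 1.70 over all cells. GLI1 in stroma (0.03) was -0.16 without the deepest cells, 0.19 in Leiden clusters and with the larger library judged, 0.21 with names by gate share and 1.44 over all cells. GLI3 in stroma (-0.64) was -0.71 with cuts doubled, -0.52 without the deepest cells, -0.34 as a mean of per-cell CPM, -0.58 in Leiden clusters and with the larger library judged, -0.52 with names by gate share, -0.54 with the median-of-ratios factor and 0.22 over all cells. Reversals among other ratios were GLI1 (-0.05) and GLI2 (-0.73) in the Sertoli class of Leiden clusters, BOC in Leydig cells with cuts halved (-0.32), and over all cells DHH against its endothelial ratio (-0.04) and SUFU against its macrophage ratio (0.43). The first 2 did not reverse under the other 2 namings, where that class held 812 and 686 cells at 4 weeks in place of 145. Beyond the cells each setting takes in, the cause was not tested. Shares of cells with a UMI at 8 and 4 weeks were 54.1% and 59.6% (DHH), 65.0% and 60.1% (PTCH1) and 36.4% and 57.2% (HHIP) without thinning. No paired analysis was possible because each stage is 1 library, and for the same reason no replicate could be left out. Low UMI counts limit what can be said of GLI1 and HHIP in Leydig cells and of DHH outside Sertoli cells.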

Other observations

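Steroid and granulosa cell genes appeared outside the gates that usually hold them. CYP17A1 was at 963 CPM at 8 weeks and 611 CPM at 4 weeks in the Sertoli gate, against 92.3 and 32.6 CPM in germ cells. FOXL2, at 0.267 and 0.430 CPM in the Sertoli gate at 8 and 4 weeks, was at 12.6 and 19.9 CPM in the Leydig gate. Cluster 34, which took no cell type name here and held 57 and 11 cells, had at 8 weeks 113 CPM of BOC and 68.2 CPM of HHIP.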
